A study of Mus musculus with 6 samples.

Results

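Adipogenic transcription factors and adipocyte genes were followed in 6 stromal populations of the mouse omentum, P1 to P6. The set was given as a list of 10 genes among the 23352 gene symbols measured. Of these, 6 encode transcription factors that act in preadipocytes (*Pparg*, *Cebpa*, *Cebpb*, *Zfp423*, *Ebf1* and *Ebf2*), and 4 encode proteins of mature adipocytes (*Fabp4*, *Adipoq*, *Lpl* and *Plin1*). All 10 reached 1 FPKM (fragments scaled to transcript length and to library depth, so a level per length) in at least 1 library.

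Adipocytes arise from CD140a-bearing stromal precursors. In cell culture, C/EBPβ is induced early and is followed by PPARγ and C/EBPα, which sustain each other and switch on genes for lipid uptake and storage. ZFP423 and the EBF proteins mark committed precursors and act upstream of PPARγ. The omentum is a fat depot of the peritoneal cavity that is covered by mesothelium and holds immune clusters called milky spots, in which stromal cells and adipocytes lie side by side.

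All cells came from the omentum of wild-type (WT) C57BL/6 mice, and their age, sex and number were not given in the sources used here. P1, P2 and P3 were CD45-CD140a+CD105+ cells sorted by their aldehyde dehydrogenase (ALDH) activity, which was high in P1, intermediate in P2 and low in P3. Cells of the CD45-CD140a+CD105- gate were divided into P4, with intermediate, and P5, with low ALDH activity, and P6 was CD45-CD140a low and ALDH positive. There was 1 library for each population, so no difference has a replicate check and no p-value was computed.

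Estimated depth was 53.15 M to 61.5 M reads in P1 to P5 and 36.75 M in P6. Between 11340 and 12043 genes reached 1 FPKM per library. The genes behind the CD105, CD140a and CD45 gates followed the labels, with *Eng* (CD105) at 42.6 to 52.4 FPKM in P1 to P3 and at most 0.728 elsewhere, and *Pdgfra* (CD140a) at 117 to 154 FPKM in P1 to P5 and 5.36 in P6. *Ptprc* (CD45) was at most 0.755 FPKM in any library. *Aldh1a2*, a retinaldehyde dehydrogenase gene behind the ALDH gate, did not follow the order of activity with CD105, with 469 (P1), 78.8 (P2) and 133.7 (P3) FPKM, so it was lower at intermediate than at low activity. Without CD105 it had 285 (P4) and 145 (P5) FPKM, in the order of activity, and it had 209 FPKM in P6. The sort was on enzyme activity and not on this transcript, and comparisons by ALDH activity below use the sort labels. Ratios between libraries are given with 95% intervals computed from estimated reads, which cover counting error only and not the spread between mice or sorts. In bulk samples of this kind, fewer cells that express a gene and less of its RNA per cell cannot be told apart.

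The factors as a group were highest in the CD105+ populations, lower in P4 and lower again in P5. *Pparg*, which encodes the nuclear receptor that drives adipocyte differentiation, had 12.01 (P1), 8.72 (P2) and 8.04 (P3) FPKM with CD105, 6.15 (P4) and 2.30 (P5) without it, and 1.43 in P6. Each step of this order was larger than counting error except that from P2 to P3, where the ratio was 1.08 (95% interval 0.982 to 1.20). From P1 to P6 the level differed 8.39-fold (6.73 to 10.7).

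*Cebpa*, the partner of *Pparg* in sustaining the adipocyte state, had 34.4 (P1), 35.2 (P2) and 31.6 (P3) FPKM with CD105, 15.5 (P4) and 7.85 (P5) without it, and 10.4 in P6. P1 and P2 did not differ beyond counting error (P2 over P1, 1.02, interval 0.981 to 1.06), and their order turned when libraries were scaled by the median of ratios. All 3 CD105+ populations lay above both CD105- populations and P6, and the lowest value was in P5 rather than P6. *Cebpb*, the early C/EBP family member, which is also induced by stress and inflammation, was the most abundant of the 6 factors in every library. It had 265 (P1), 205 (P2) and 219 (P3) FPKM with CD105, 179 (P4) and 136 (P5) without it, and 111 in P6, and its span from highest to lowest was only 2.38-fold (2.31 to 2.46), the smallest of the 10 genes. The FPKM ratio of *Cebpb* to *Cebpa* was 5.82 to 7.69 in P1 to P3, 11.6 (P4) and 17.3 (P5) without CD105, and 10.7 in P6.

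*Zfp423*, a zinc-finger factor of committed preadipocytes, was the lowest of the factors in P1 to P5, apart from *Ebf2* in P2. It had 4.61 (P1), 3.71 (P2) and 2.70 (P3) FPKM with CD105, 2.79 (P4) and 1.27 (P5) without it, and 1.36 in P6. Its levels in P3 and P4, and in P5 and P6, did not differ beyond counting error (ratios of 1.04, 0.930 to 1.15, and 1.07, 0.899 to 1.29).

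The EBF genes followed a similar order over a much wider range. *Ebf1*, which encodes a helix-loop-helix factor needed for both adipocyte and B cell development, had 59.3 (P1), 49.1 (P2) and 40.9 (P3) FPKM with CD105, 27.8 (P4) and 10.3 (P5) without it, and 1.65 in P6, and every step was larger than counting error. *Ebf2*, a paralog known from brown and beige precursors, had 26.7 (P1) and 10.6 (P3) FPKM with CD105, 11.9 (P4) and 3.09 (P5) without it, and 0.203 in P6. P1 exceeded P4, the next in order, 2.24-fold (2.14 to 2.34), and P5 exceeded P6 15.3-fold (10.6 to 22.6).

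In P2, *Ebf2* was listed at 0. Abundant stromal genes were listed at 0 in single libraries as well. *Col3a1* was at 0 in P2 and at 2100 to 3390 FPKM in the other libraries, *Fn1* was at 0 in P1, and *Gsn* was at 0 in P1, P2 and P3 and at 5350 FPKM in P4. *G3bp2* and *Dnmt3a* were at 0 in P5. These genes were picked after their values were seen. A 0 for *Ebf2* in P2 is therefore read as a listing and not as a level, and *Ebf2* was left out of every comparison with P2.

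**Figure D1:**
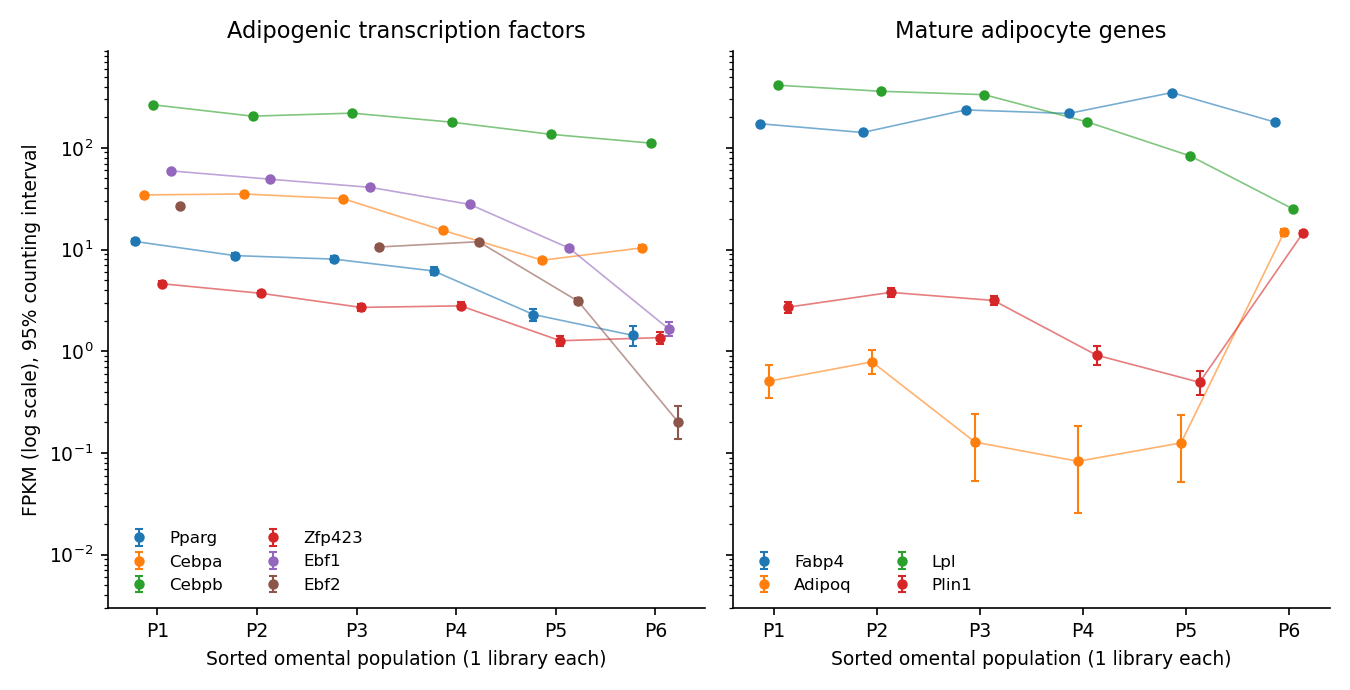
FPKM on a log axis of the 6 factors (left) and the 4 adipocyte genes (right) in the sorted populations P1 to P6, 1 library each. Points are deposited values, bars are 95% intervals for counting error, and Ebf2 in P2, listed at 0, is not drawn. Ebf1 and Ebf2 span the widest range among the factors, Lpl runs from 412 FPKM in P1 to 24.9 in P6, and Adipoq and Plin1 peak in P6.

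The 4 adipocyte genes did not share a pattern. *Lpl*, which encodes the secreted lipase that releases fatty acids from lipoproteins, had 412 (P1), 359 (P2) and 333 (P3) FPKM with CD105, 180 (P4) and 83.1 (P5) without it, and 24.9 in P6, the same order as *Ebf1* and *Pparg*. By the root mean square (RMS) difference of log2(FPKM + 0.1), centred on each gene's own mean over the 6 libraries, its nearest neighbours among the 10 genes were *Ebf1* (0.38) and *Pparg* (0.45), whereas it differed from *Plin1* by 2.34 and from *Adipoq* by 3.30. *Lpl* was the most abundant of the 10 genes in P1, P2 and P3, and *Fabp4* was so in P4, P5 and P6.

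*Fabp4*, which encodes a fatty acid carrier of adipocytes that endothelial cells and macrophages also make, ran the other way across P2 to P5. It had 172 (P1), 141 (P2) and 236 (P3) FPKM with CD105, 218 (P4) and 349 (P5) without it, and 179 in P6. At each ALDH level it was higher without CD105, and at each CD105 state it was higher with low ALDH activity. P5 exceeded P3, the next in order, 1.48-fold (1.44 to 1.52), and P6 and P1 did not differ beyond counting error (1.04, 0.9998 to 1.08). The FPKM ratio of *Fabp4* to *Lpl* was 0.394 to 0.708 in P1 to P3, 1.21 (P4) and 4.2 (P5) without CD105, and 7.19 in P6.

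*Adipoq*, the gene of the adipocyte hormone adiponectin, had 14.7 FPKM in P6 against 0.508 (P1), 0.785 (P2) and 0.128 (P3) FPKM with CD105 and 0.0828 (P4) and 0.126 (P5) without it. The values of P3, P4 and P5 rest on an estimated 8.4, 5.3 and 8.4 reads and did not differ beyond counting error, nor did those of P1 and P2 (P2 over P1, 1.55, 0.960 to 2.48). *Plin1*, which encodes the coat protein of adipocyte lipid droplets, had 14.4 FPKM in P6, 2.71 (P1), 3.79 (P2) and 3.16 (P3) FPKM with CD105, and 0.915 (P4) and 0.495 (P5) without it. It peaked in P6 like *Adipoq*. Among the other populations it was higher in each of the 3 CD105+ populations than in either CD105- population. The same held for *Pparg*, *Cebpa*, *Cebpb*, *Ebf1* and *Lpl*. The FPKM ratio of *Plin1* to *Adipoq* was 0.978 in P6 and 3.94 to 24.7 in P1 to P5.

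P6 was compared with each of the other populations, which asks what distinguishes cells with little CD140a. A gene was counted as higher or lower when it differed at least 2-fold on log2(FPKM + 0.1) from each of P1 to P5, with at least 1 FPKM on the higher side. Of the 9 members with a value in every library, 2 were higher in P6, *Adipoq* and *Plin1*, against 6.25% of all 12904 genes tested. Both are adipocyte genes, and *Adipoq* reached 1 FPKM in P6 alone. *Adipoq* was 18.7-fold (14.02 to 25.1) and *Plin1* 3.80-fold (3.37 to 4.28) above P2, the next population.

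As many members, *Ebf1* and *Lpl*, were lower in P6 than in each other population, against 3.36% of all genes. *Ebf1* was 6.23-fold (5.30 to 7.36) and *Lpl* 3.33-fold (3.22 to 3.46) below P5, the next population. *Ebf2* met the same threshold against the 4 populations in which it had a value. *Pparg* was 4.30-fold (3.42 to 5.52) lower in P6 than in P4 but only 1.60-fold (1.24 to 2.101) lower than in P5, so it was counted as lower when P5 was left out. *Cebpa* and *Zfp423* had lower values in P5 than in P6, although for *Zfp423* the difference lay within counting error. *Cebpb* in P6 was 1.22-fold (1.18 to 1.26) below P5. On the log2 scale, P6 minus the mean of the others was negative for all 6 factors, from -0.85 for *Cebpb* to -5.44 for *Ebf2*, while the median over all genes tested was 0.08. For the adipocyte genes it was 5.12 for *Adipoq*, 2.65 for *Plin1*, -0.32 for *Fabp4* and -3.45 for *Lpl*.

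Further adipocyte markers were examined by their values in P6, in a list of 12 that includes *Adipoq* and *Plin1*. Of the 8 that reached 1 FPKM in a library, 5 did so in P6 alone (*Adipoq*, *Cfd*, *Cidec*, *Retn* and *Pck1*), so that their place above the other populations was largely set by the filter, and no count over the list is given. *Cfd*, the gene of the adipokine adipsin, had 114 FPKM in P6 and 0.0236 to 0.337 in P1 to P5. *Cidec*, *Retn* and *Pck1*, named after their values were seen, had 8.72, 4.05 and 4.99 FPKM in P6. *Car3*, a carbonic anhydrase abundant in adipocytes, had 212 FPKM in P6 and 10.1 to 53.9 elsewhere. *Lipe*, the hormone-sensitive lipase gene, did not differ 2-fold from each other population, with 10.01 FPKM in P6 and 4.54 to 9.65 in P1 to P5. The other 4, *Slc2a4*, *Adrb3*, *Aqp7* and *Lep*, were below 1 FPKM in every library, and *Lep*, the leptin gene, was listed at 0 in P6. The summed level of the list was 384 FPKM in P6 and 20.9 to 63.3 FPKM in P1 to P5.

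Markers of further cell types stood beside these values. Their counts in P6 are to be read against 6.25% of all genes tested higher and 3.36% lower. A mesothelial list had 9 of 10 tested genes higher in P6 than in each other population, with *Upk3b* at 1140 FPKM, and its sum was 3200 FPKM in P6, 1019 in P4, 820 in P5 and 75.8 to 153 in P1 to P3. *Cdh1* of that list was listed at 0 in P1 and P3 and was at most 0.0729 FPKM elsewhere. The sum was thus lowest in P1, where the summed factors were highest, and highest in P6, where they were lowest. Between P4 and P5, however, both sums were higher in P4, with 243 and 160 FPKM for the factors. *Cebpb* made up 265 of 402 FPKM of the summed factors in P1 and 111 of 126 FPKM in P6. An endothelial list had 3 of 4 tested genes higher in P6, *Esam* (62.0 FPKM), *Kdr* (46.9 FPKM) and *Egfl7* (1.54 FPKM, at 1 FPKM or more in P6 alone and named after its value was seen), with sums of 118 FPKM in P6 and 5.73 to 38.5 FPKM in P1 to P5. The other tested gene of that list, *Plvap*, was highest in P5, with 4.79 FPKM in P6 and 3.73 to 26.8 FPKM in P1 to P5. The defining endothelial genes *Pecam1* and *Cdh5* were highest in P6 but reached only 0.992 and 0.343 FPKM there. *Tie1*, *Robo4*, *Gpihbp1* and *Cldn5* were also highest in P6. *Flt1* and *Emcn* were highest in P3, and *Erg* and *Sox17* were listed at 0 in P6. All of these genes were below 1 FPKM in every library and were named after their values were seen.

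Pancreatic acinar transcripts, summed over 15 genes, amounted to 2064 FPKM in P6, 1428 (P4) and 167 (P5) FPKM in the CD105- cells, and 4.63 (P1), 264 (P2) and 27.4 (P3) FPKM in the CD105+ cells. None of them was listed at 0, and none of the 15 was 2-fold higher in P6 than in each other population. Myeloid markers summed to 26.1 to 63.9 FPKM in P1 to P5 and 73.7 FPKM in P6, with *Fcgr1* and *Cx3cr1* listed at 0 in P6 and 2 of 6 tested genes, *Cd68* (named after its value was seen) and *Csf1r*, higher there. Mural markers summed to 74.0 to 346 FPKM in P1 to P5 and 106 FPKM in P6, with 3 of 8 tested genes higher, 2 of which (*Cspg4* and *Mcam*) reached 1 FPKM in P6 alone, and 1 lower in P6. The shares of all genes in P6 were 6.25% higher and 3.36% lower. No lymphoid marker of 3 tested and no erythroid gene of 4 tested was higher or lower in P6. Their part in the levels of *Adipoq*, *Plin1*, *Fabp4* and the factors was not tested.

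**Figure D2:**
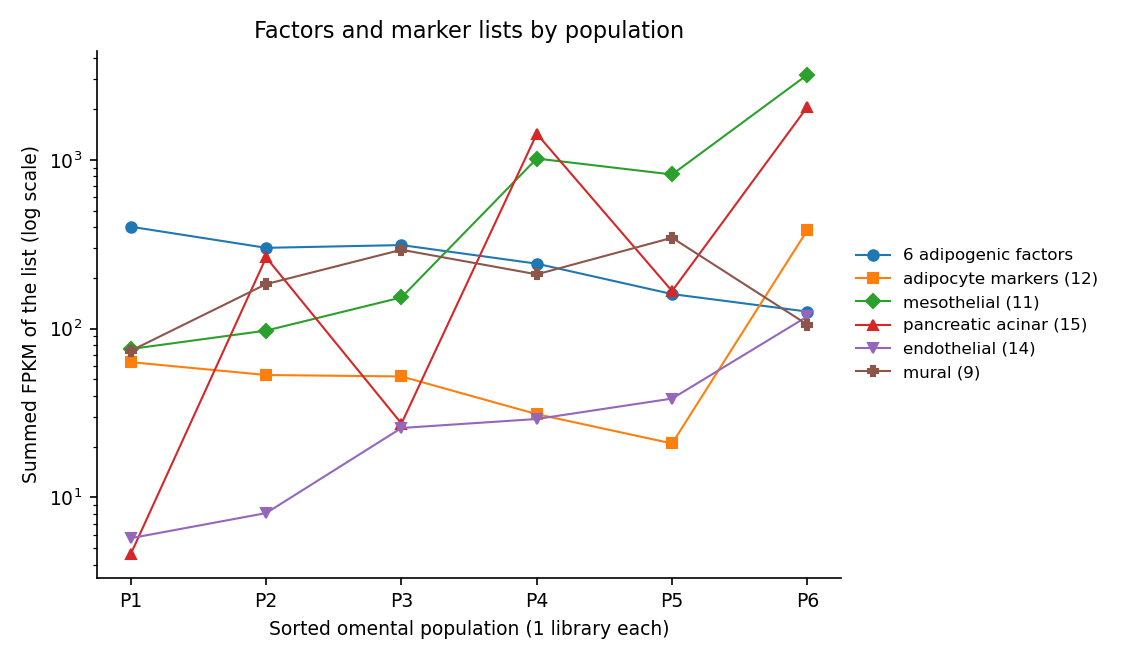
Summed FPKM on a log axis of the 6 factors and of marker lists for adipocytes, mesothelium, pancreatic acini, endothelium and mural cells in P1 to P6, with the number of genes of each marker list in parentheses and 1 library per point. The sum of the factors, in which Ebf2 enters as 0 in P2, is 402 FPKM in P1 and 126 in P6, while mesothelial markers reach 3200 FPKM and adipocyte markers 384 FPKM in P6.

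Most genes of fat storage were neither higher nor lower in P6 by the 2-fold rule. Of all genes tested, 6.25% were higher and 3.36% lower. Among 13 tested genes of lipolysis and fatty acid uptake, 2 were higher in P6, *Mgll* (monoglyceride lipase, 22.7 FPKM against 1.39 to 3.76) and *Acsl1*, and none was lower. Among 18 genes of lipogenesis, 3 were higher, *Thrsp* (21.5 FPKM against 0.0204 to 0.735), *Dgat2* and *Pck1*, and none was lower, whereas *Fasn*, the fatty acid synthase, had 16.3 FPKM in P6 and 11.8 to 14.3 FPKM elsewhere. Of 9 lipid droplet genes, 1 was higher, *Cidec*, and the median log2 difference of that list was -0.26. Of 8 adipokine genes, 4 were higher, *Cfd*, *Car3*, *Retn* and *Adig*, and *Apln*, which encodes apelin, was lower (6.32 FPKM against 24.4 to 134). *Thrsp*, *Pck1*, *Cidec*, *Cfd*, *Retn* and *Adig* reached 1 FPKM in P6 alone, so the filter admitted them only where they were high. *Acsl1*, *Dgat2*, *Adig* and *Fasn* were named after their values were seen. Of 7 brown adipocyte genes, 2 reached 1 FPKM in a library, *Cox7a1* and *Cox8b*, and both were higher in P6. *Cox7a1*, a muscle and brown fat subunit of cytochrome oxidase, had 9.05 FPKM in P6 and 1.97 to 3.11 elsewhere. *Cox8b* had 4.02 FPKM in P6 and at most 0.903 elsewhere, so it reached 1 FPKM in P6 alone. Both were named after their values were seen. *Ucp1*, the uncoupling protein of brown fat, was listed at 0 in every library.

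The remaining regulators resembled the 6 factors in part. Of 19 other adipogenic factors tested, 4 were lower in P6 than in each other population and 1 was higher. The shares of all genes were 3.36% lower and 6.25% higher. *Cebpd*, which acts with *Cebpb* early in differentiation, had 668 (P1), 561 (P2) and 514 (P3) FPKM with CD105, 313 (P4) and 188 (P5) without it, and 90.02 in P6. *Tcf21*, a helix-loop-helix factor of visceral mesenchyme, had 177, 141 and 119 FPKM in P1, P2 and P3, 72.8 (P4) and 29.0 (P5) without CD105, and 2.74 in P6. *Ebf3*, the third EBF gene measured, had 12.6 to 20.9 FPKM in P1 to P3, 5.21 (P4) and 3.43 (P5) without CD105, and 0.340 in P6. *Nr1h3*, the gene of the sterol receptor LXRα, was also lower (8.47 FPKM against 21.7 to 39.9), and *Klf5* was higher (8.28 FPKM against at most 1.30, named after its value was seen). The list as a whole had a median log2 difference of -0.50, with 12 genes below 0 and 7 above.

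Genes listed as restraining adipogenesis were not higher as a group where the factors were lower. The role of each gene was taken from the list and was not tested. Of 18 tested, with a median log2 difference of -0.96, 4 were lower in P6 than in each other population, *Id2*, *Id3*, *Hes1* and *Sox9*, and 1 was higher, *Gata3*, with 1.17 FPKM and below 1 FPKM elsewhere (*Sox9* and *Gata3* were named after their values were seen). *Id3*, which encodes an inhibitor of helix-loop-helix factors, had 484 to 774 FPKM in P1 to P5 and 205 in P6. Of all 12904 genes tested, 3.36% were lower and 6.25% higher in P6, so the 1 higher gene says nothing particular to that list. Of 15 progenitor markers, 7 were lower. They include *Pdgfra*, on whose product P6 was gated as low, and *Ly6a* (1417 FPKM in P1, 298 in P5 and 62.3 in P6), *Gdf10* (561, 66.6 and 3.13 FPKM) and *Pi16* (156, 18.2 and 2.71 FPKM). The 3 higher ones were *Dpp4*, *Clec11a* and *Bmp7*, named after their values were seen, with 71.2, 72.3 and 5.65 FPKM in P6, and *Bmp7* reached 1 FPKM in P6 alone.

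**Figure D3:**
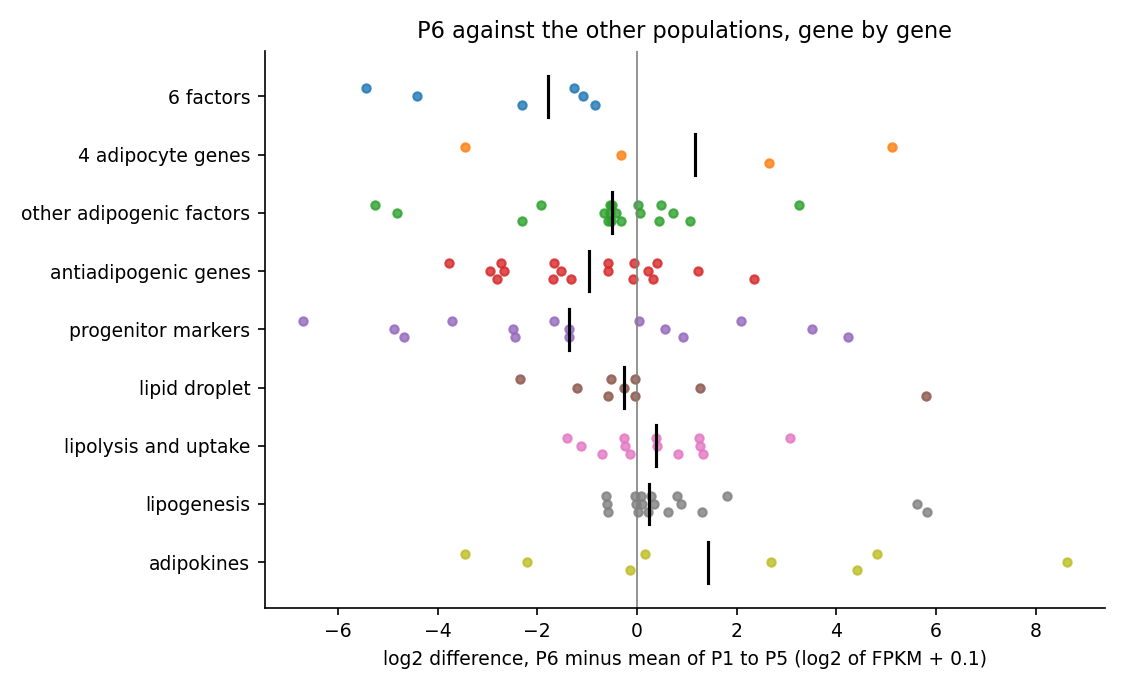
Difference of log2(FPKM + 0.1) between P6 and the mean of P1 to P5 for each gene of at least 1 FPKM in a library, by gene list, with black bars at the list medians; each point is 1 gene and Ebf2 is set against the mean of the 4 libraries in which it had a value. All 6 factors lie below 0, the 4 adipocyte genes range from -3.45 to 5.12, and adipokines reach 8.62.

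Among CD140a+ cells, populations that differ in CD105 at a like ALDH level were compared next. At low ALDH activity, 7 of 10 members were at least 2-fold higher with CD105 (P3) than without it (P5), and none was lower, against 7.33% and 6.29% of all 12152 genes tested. The 7 were *Pparg*, *Cebpa*, *Zfp423*, *Ebf1*, *Ebf2*, *Lpl* and *Plin1*. The ratio of P3 to P5 was 3.50 (3.01 to 4.09) for *Pparg*, 4.03 (3.78 to 4.30) for *Cebpa*, 3.97 (3.76 to 4.19) for *Ebf1* and 3.42 (3.16 to 3.71) for *Ebf2*. It was 4.01 (3.94 to 4.07) for *Lpl* and 6.38 (4.76 to 8.75) for *Plin1*, so the largest ratio belonged to a lipid droplet gene. *Zfp423* lay near the threshold (2.13, 1.86 to 2.44), and it did not pass with quantile normalization or a pseudocount of 1. *Cebpb* had a ratio of 1.62 (1.58 to 1.66), *Fabp4* 0.675 (0.658 to 0.693), and *Adipoq* 1.02 with a wide interval of 0.334 to 3.12.

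At intermediate ALDH activity the ratios for this contrast were nearer to 1 for most members, with *Adipoq* the clearest exception. Of the 9 with a value in P2, 3 were at least 2-fold higher in P2 than in P4, *Cebpa*, *Lpl* and *Plin1*, and none was lower, against 4.9% and 7.63% of all 12181 genes tested. *Cebpa* had a ratio of 2.27 (2.16 to 2.39) and *Plin1* of 4.14 (3.29 to 5.25). *Lpl* lay at the threshold (2.001, 1.98 to 2.02) and did not pass with quantile normalization or a pseudocount of 1. The ratio was 1.42 (1.27 to 1.58) for *Pparg*, 1.33 (1.20 to 1.47) for *Zfp423*, 1.77 (1.70 to 1.83) for *Ebf1*, 1.15 (1.12 to 1.17) for *Cebpb* and 0.650 (0.629 to 0.672) for *Fabp4*. *Adipoq* had the largest ratio, 9.49 (4.07 to 32.4), but was below 1 FPKM in both and so was not counted. Whether the ratios differ between the ALDH levels was not tested.

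These ratios moved with the scaling. Division by *Gapdh*, which had 214 to 224 FPKM in P1 to P3 and 302 and 326 FPKM in P4 and P5, shifted the median log2 difference of all genes to 0.39 for P2 against P4 and 0.45 for P3 against P5, from -0.08 and -0.09 as deposited. It changed the split of all genes from 597 higher and 930 lower to 1252 and 609 for the former, and from 891 and 764 to 1658 and 401 for the latter. With it, *Ebf1* also passed in P2 against P4 and *Cebpb* in P3 against P5. Mesothelial markers differed in the opposite direction to the factors in both contrasts, with 9 of 10 tested genes lower in P2 than in P4 and 7 of 8 lower in P3 than in P5. Of all genes, 7.63% and 6.29% were lower in these contrasts. All 15 acinar genes were lower in P2 than in P4 and in P3 than in P5. Their part in the ratios was not tested.

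Regulators outside the 10 genes were higher with CD105 in part. Of 19 other adipogenic factors tested, 5 were at least 2-fold higher in P3 than in P5, *Cebpd*, *Tcf21*, *Ebf3*, *Egr2* and *Klf15*. Between P2 and P4, 2 were higher in P2, *Ebf3* and *Egr2*, and none was lower in either contrast. The shares of all genes were 7.33% and 4.9% higher and 6.29% and 7.63% lower. Median log2 differences of this list were 0.30 and 0.17. Of the genes listed as restraining adipogenesis, 6 of 16 tested were higher in P3 than in P5 and 5 of 17 in P2 than in P4. These counts stood beside 7.33% and 4.9% of all genes. None of the list was 2-fold lower, against 6.29% and 7.63% of all genes, and its median log2 differences were 0.63 and 0.58. The others did not pass, and *Klf2*, *Klf3* and *Twist1*, named after their values were seen, had lower values with CD105, such as 16.2 FPKM in P3 and 28.4 in P5 for *Twist1*. Progenitor markers were split. In each contrast 4 of 14 were lower with CD105, *Cd9*, *Cd24a*, *Dpp4* and *Wnt2*, against 6.29% and 7.63% of all genes. Higher were 5 in P3 and 4 in P2, *Gdf10*, *Pi16*, *F3* and *Pdgfrb* in both. *Cd24a*, *Dpp4*, *Wnt2* and *Pdgfrb* were named after their values were seen.

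ALDH activity was then compared within each CD105 state. Without CD105, 5 of 10 members were at least 2-fold higher at intermediate (P4) than at low activity (P5), and none was lower, against 3.93% and 1.44% of all 12022 genes tested. *Ebf2* had the largest ratio, 3.86 (3.56 to 4.18), followed by *Ebf1* with 2.70 (2.55 to 2.86), *Pparg* with 2.68 (2.29 to 3.15), *Zfp423* with 2.20 (1.93 to 2.53) and *Lpl* with 2.16 (2.13 to 2.20). *Zfp423* did not pass with a pseudocount of 1. *Cebpa* was just under the threshold at 1.97 (1.83 to 2.11) and passed it after scaling by the median of ratios, *Gapdh* or quantiles. *Plin1* had a ratio of 1.85 (1.31 to 2.67) between values below 1 FPKM, *Cebpb* of 1.32 (1.29 to 1.35) and *Fabp4* of 0.623 (0.607 to 0.640). Of the other adipogenic factors, 1 of 19 was higher in P4, *Tcf21*. Beside 3.93% of all genes, this count says nothing particular to that list. All 15 acinar genes and 3 of 10 mesothelial genes were also higher in P4 than in P5, and their part in the ratios was not tested.

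With CD105, ALDH activity was compared between P1 and P2 and between P2 and P3. *Ebf2*, which had no value in P2, differed 2.52-fold (2.41 to 2.64) between P1 and P3, with P1 higher. None of the 9 members with a value in P2 was 2-fold different between P2 and P3, against 1.09% of all 11980 genes higher and 2.56% lower in P2. Between P1 and P2 none was either, against 0.957% of all 11803 genes higher and 4.23% lower in P1. With so few of all genes counted, a count of 0 among 9 says nothing particular to the members. In the latter pair, quantile normalization moved the share of genes higher in P1 among all those counted from 18.5% to 29.4%. All 15 acinar genes were lower in P1 than in P2 and higher in P2 than in P3, and their part was not tested. *Adipoq*, with 52.6 estimated reads in P2 and 8.4 in P3, had a ratio of 6.14 (3.07 to 15.8) but did not reach 1 FPKM. *Fabp4* was 1.67-fold (1.61 to 1.72) higher in P3 than in P2. *Zfp423* and *Ebf1* were 1.37-fold (1.24 to 1.52) and 1.20-fold (1.16 to 1.24) higher in P2 than in P3. From P2 to P1, *Pparg* was 1.38-fold (1.26 to 1.51), *Cebpb* 1.29-fold (1.27 to 1.32) and *Zfp423* 1.24-fold (1.14 to 1.36) higher, and *Plin1* was 1.40-fold (1.19 to 1.65) lower.

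**Figure D4:**
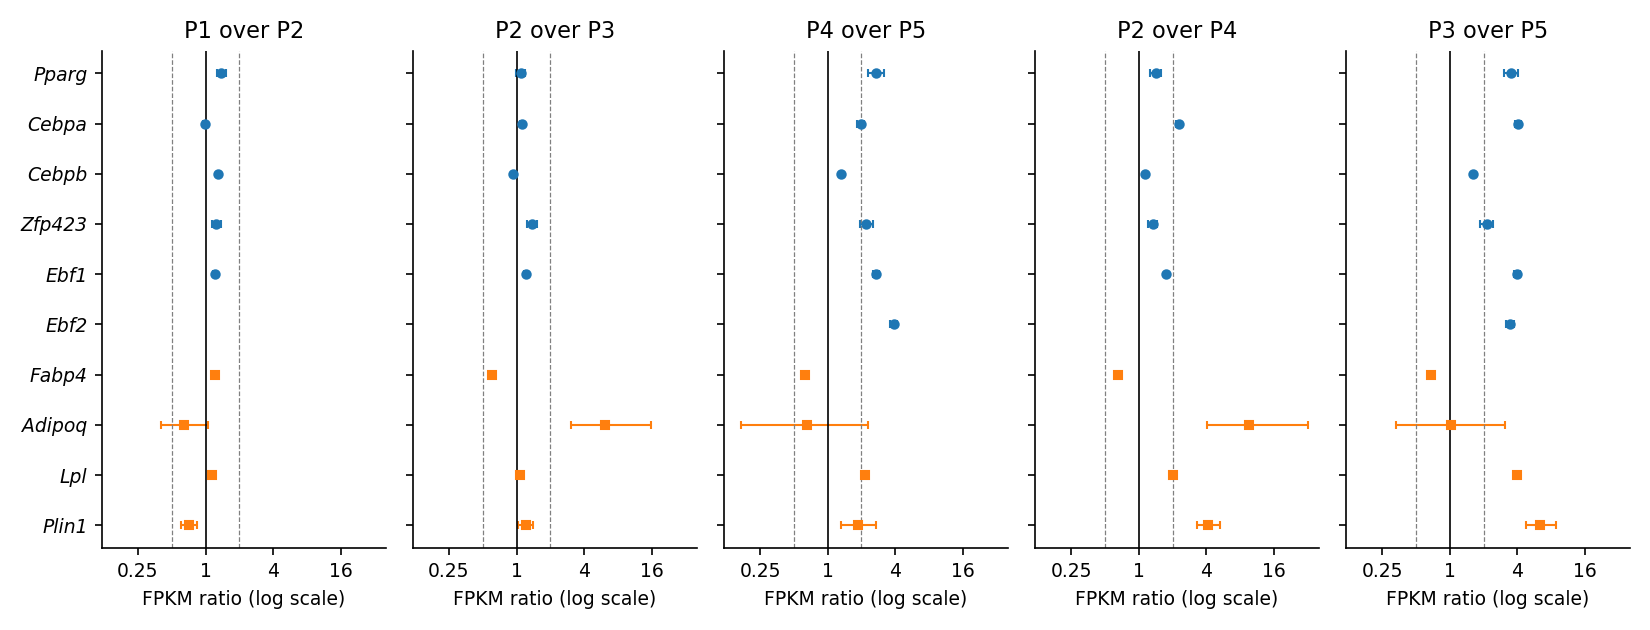
FPKM ratios on a log axis for the 10 members in 5 pairs of populations, with 95% intervals for counting error; circles are factors, squares are adipocyte genes, dashed lines mark 2-fold, and Ebf2 is not drawn in pairs with P2. Ratios of P1 to P2 and of P2 to P3 stay within 2-fold apart from Adipoq, whereas 5 genes pass 2-fold in P4 over P5 and 7 in P3 over P5, and Fabp4 lies below 1 in the last 4 pairs.

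Genes nearest in pattern were sought in the whole table, over all 12904 genes that reached 1 FPKM anywhere. For *Pparg* they included *Hpgd*, which encodes the enzyme that inactivates prostaglandins (RMS difference 0.09 over 6 libraries), *Aoc3*, a cell surface amine oxidase (0.11), *Cadps* (0.13) and *Ecm2* (0.14). *Hpgd* had 19.8 (P1), 14.7 (P2) and 14.6 (P3) FPKM with CD105, 9.16 (P4) and 3.67 (P5) without it, and 2.24 in P6, close to a constant multiple of *Pparg*. For *Zfp423* they were *Ogn*, a small proteoglycan of connective tissue (0.06), *Mical1* (0.07), *Col5a1*, a fibrillar collagen chain (0.10), *Ddah2* (0.11) and *Fancc* (0.11). *Adipoq* had no close match, the nearest being *Fam107b* (0.57), *Cdo1*, a cysteine dioxygenase (0.63), *Miat* (0.69), *Cidec* (0.70) and *B3gnt7* (0.72). *Miat*, *Cidec* and *B3gnt7*, like *Adipoq*, reached 1 FPKM in P6 alone. In P1 to P5 these 3 had at most 0.175 FPKM, near the 0.1 added before the log, and *B3gnt7* was listed at 0 in P3 and P5. Their likeness to *Adipoq* was thus largely set by the filter and the added 0.1. These libraries are the same for every gene, so the values describe likeness and carry no test.

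Promoter sequences are shown for 5 members to set the patterns side by side. Of these, *Pparg*, *Cebpa* and *Ebf1* were higher in CD105+ cells, and *Plin1* and *Adipoq* peaked in P6. Among P1 to P5, *Plin1* was also higher in each CD105+ than in each CD105- population. RefSeq (GRCm38.p6, the assembly named mm10 in the processing notes) gave 11 promoters for 7 of the 10 members, and *Ebf2*, *Fabp4* and *Lpl* were not matched. Each line holds the 250 bases just before an annotated transcription start, outside the first exon of that transcript, 5′ to 3′ on the strand of the gene, and capitals mark matches on either strand to CCCNNGGG (the EBF motif), TTNNGNAA (a C/EBP motif), CCAAT or TATAAA. The window lies at chr6:115421816-115422065 for the third and most downstream *Pparg* start (plus strand), chr7:35119043-35119292 for *Cebpa* (plus), chr11:44617850-44618099 for *Ebf1* (plus), chr7:79732777-79733026 for *Plin1* (minus) and chr16:23146286-23146535 for *Adipoq* (plus).
Pparg: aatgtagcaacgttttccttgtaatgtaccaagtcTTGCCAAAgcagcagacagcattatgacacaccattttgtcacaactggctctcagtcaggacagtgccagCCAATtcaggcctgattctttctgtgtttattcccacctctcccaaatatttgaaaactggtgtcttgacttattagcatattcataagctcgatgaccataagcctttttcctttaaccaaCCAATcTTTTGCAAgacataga
Cebpa: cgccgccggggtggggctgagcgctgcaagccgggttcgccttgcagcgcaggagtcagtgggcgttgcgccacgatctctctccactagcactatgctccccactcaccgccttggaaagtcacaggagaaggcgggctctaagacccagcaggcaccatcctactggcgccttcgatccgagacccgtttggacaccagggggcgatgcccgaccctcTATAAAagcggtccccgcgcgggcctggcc
Ebf1: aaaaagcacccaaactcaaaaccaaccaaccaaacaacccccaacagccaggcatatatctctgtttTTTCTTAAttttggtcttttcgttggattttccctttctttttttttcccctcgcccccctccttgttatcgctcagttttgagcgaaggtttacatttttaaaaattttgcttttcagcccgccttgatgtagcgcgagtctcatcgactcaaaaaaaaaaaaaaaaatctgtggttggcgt
Plin1: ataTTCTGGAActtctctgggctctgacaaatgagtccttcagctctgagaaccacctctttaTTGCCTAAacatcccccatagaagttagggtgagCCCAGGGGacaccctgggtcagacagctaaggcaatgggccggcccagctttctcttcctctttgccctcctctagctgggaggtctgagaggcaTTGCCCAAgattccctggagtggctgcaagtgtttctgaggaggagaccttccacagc
Adipoq: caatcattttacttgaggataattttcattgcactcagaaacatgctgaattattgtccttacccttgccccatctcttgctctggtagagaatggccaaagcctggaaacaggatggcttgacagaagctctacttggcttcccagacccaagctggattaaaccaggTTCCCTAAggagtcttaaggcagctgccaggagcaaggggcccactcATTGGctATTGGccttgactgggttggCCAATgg

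The EBF motif occurred in 3 of the 11 member promoters, those of *Cebpb*, *Plin1* and the second *Zfp423* start, against 11.8% of 32851 promoters of the same length. The C/EBP motif occurred in 6, against 36.8%, with 3 matches in *Plin1*, 2 in *Pparg* and 1 each in *Ebf1*, *Adipoq* and both *Zfp423* promoters. CCAAT was found in 3 of 11 (33.8% of all), with 3 matches before *Adipoq*, and TATAAA in 2 of 11 (12.4% of all), before *Cebpa* and the second *Pparg* start. No member promoter held the strict direct repeat 1 consensus, the element bound by PPARγ with its RXR partner, which was in 0.0335% of all promoters. No matches overlapped. *Plin1*, with EBF and C/EBP matches, and *Adipoq*, with a C/EBP but no EBF match, both peaked in P6. The values are per gene, so they do not say which *Pparg* start was in use.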

How the data were processed

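RNA-seq of 6 stromal populations from wild-type mouse omentum was analyzed, with 1 library each and single-end reads of 76 bp. The authors deposited FPKM values per gene symbol. The submitters' processing notes name TopHat2 2.0.7, Cufflinks 2.1.1 and mm10 and do not give their order, and no scaling between libraries was stated. RNA was purified with an RNeasy Micro kit and libraries were made with NEBNext Ultra.

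Rows that repeated a symbol (495) were summed, which left 23352 genes. Depth was estimated by finding the number of reads at which low FPKM values of genes with 1 annotated GENCODE M21 transcript, 800 nt or longer, came closest to whole reads, with a fragment length of 200 nt. In each library, 58.3% to 63.3% of tested values lay within 0.05 of a whole read (10% by chance, with the depth chosen to raise this share), so reads are estimates, and no count test was run. Intervals for FPKM are exact Poisson and those for ratios exact binomial (Clopper-Pearson), at 95%, with the shortest RefSeq-matched transcript as the length.

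A gene was called when it differed 2-fold on log2(FPKM + 0.1), with at least 1 FPKM in the higher population. Called genes are descriptions, since each population had 1 library. A member listed at 0 in a library was left out of comparisons with it. The 10 genes and all gene lists were chosen with earlier results of these data known. The rule for naming genes of a list took those of at least 10 FPKM in a library that were called in a comparison. It kept at most 6 per list by highest FPKM, and not all genes that met it are named. Some others are named as well, in part marked as named after their values were seen. Pattern matches were named for *Pparg*, *Zfp423* and *Adipoq*, from the nearest 5 each, of which 1 is not reported here. Procedures were tested on simulated data. Alternatives for scaling, pseudocount, minimum, fold, repeated symbols, zeros, transcript length and the populations compared are given in the closing section. Computations used scipy 1.17.1, pandas 2.3.3 and numpy 2.4.6 under Python 3.11.15, and figures matplotlib 3.10.9.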

Additional observations from a re-analysis of the deposited data

Results flagged for a closer look

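*Cebpb* differed by ALDH activity in opposite directions in the CD105+ and CD105- cells. The FPKM ratio of intermediate to low activity was 0.934 (95% interval for counting error 0.914 to 0.954) with CD105, P2 to P3, and 1.32 (1.29 to 1.35) without it, P4 to P5. The opposite directions held under all 5 scalings run, with ratios of 0.915 to 0.96 and 1.28 to 1.42, and the difference between the ratios was not tested, since each population had 1 library.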

How the results depend on the processing

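Of 94 recomputed counts of members, 89 stayed within 1.5 times the reported count. Between P2 and P3, 1 member was counted instead of 0 without a minimum FPKM (*Adipoq*) and at a threshold of 1.5-fold (*Fabp4*). Between P2 and P4, 5 members were counted at 1.5-fold and 1 at 3-fold (*Plin1*) instead of 3, and between P4 and P5, 1 (*Ebf2*) at 3-fold instead of 5, because the threshold itself moved. *Adipoq* and *Plin1* were higher and *Ebf1* and *Lpl* lower in P6 under every alternative run, including each of P1 to P5 left out in turn, whereas *Pparg* was also lower without P5 or at 1.5-fold and *Ebf2* without P2. With a minimum of 5 FPKM, *Plin1* was no longer counted in P2 against P4 or P3 against P5, nor *Zfp423* in P4 against P5 or P3 against P5. Of 449 recomputed log2 ratios of members, 0 with a size of at least 1 changed sign and 3 smaller ones did, *Cebpa* in P1 against P2, *Lpl* in P2 against P3 and *Adipoq* in P3 against P5. Counts over all genes, reported in parentheses, ranged from 446 to 1389 higher (807) and 275 to 707 lower (434) in P6, 41 to 358 (113) and 248 to 930 (499) in P1 against P2, 60 to 294 (131) and 155 to 629 (307) in P2 against P3, 193 to 866 (473) and 74 to 468 (173) in P4 against P5, 266 to 1252 (597) and 559 to 1555 (930) in P2 against P4, and 466 to 1658 (891) and 396 to 1436 (764) in P3 against P5, mostly with the fold threshold. With the full transcript length in place of the effective length, 8 instead of 9 of 49 neighbouring levels had a ratio interval that included 1. Depth limits *Adipoq* in P3, P4 and P5, at under 10 estimated reads each. No paired analysis was possible because no population had a second library.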

Other observations

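Other genes of lipid handling differed in pattern as well. *Fabp5*, a fatty acid carrier related to *Fabp4*, had 9.37 to 28.0 FPKM with CD105, 135 (P4) and 154 (P5) without it and 61.4 in P6, and *Gpd1*, which makes glycerol phosphate for triglyceride, had 0.717 to 3.43 FPKM in P1 to P3, 17.2 (P4) and 20.1 (P5) without CD105, and 9.86 in P6, so both were lowest with CD105. *G0s2*, an inhibitor of lipolysis, had 26.6 to 47.6 FPKM in P1 to P3, 13.3 (P4) and 8.93 (P5) without CD105, and 5.31 in P6, and *Rbp4*, the plasma retinol carrier, had 30.2 to 49.4, 13.9, 6.51 and 6.23 FPKM. *Wisp2*, a secreted WNT pathway protein, had 4.24 (P1), 12.1 (P2) and 6.36 (P3) FPKM with CD105 and 0.910 (P4) and 0.483 (P5) without it. It was 13.3-fold higher in P2 than in P4 and 13.2-fold higher in P3 than in P5, with the lower value below 1 FPKM each time. *Apln* was highest in P5, at 134 FPKM, and *Twist2*, a helix-loop-helix factor, had 34.0 FPKM in P1, 6.96 in P5 and 3.53 in P6.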
